A study of Mus musculus with 4 samples.

Results

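The 10 genes followed here are ones that dendritic cells switch on as they mature, measured in single-cell RNA libraries of mouse kidney: the chemokines Ccl22 and Ccl17, the chemokine receptor Ccr7, the enzyme gene Il4i1, the actin-bundling gene Fscn1, the inhibitory ligands Cd274 and Pdcd1lg2, and the costimulatory genes Cd40, Cd80 and Cd86. They were taken by symbol, and all 10 were among the 31054 features counted. The genes were picked after lower values under BPTES had been seen in the dendritic cells of these libraries. The definition of this gene set also names their values in macrophages and B cells. The values in dendritic cells, macrophages and B cells are therefore given as a description, and tests of the 10 genes are given for monocytes and T cells.

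The study compared BPTES, an inhibitor of the glutamine-hydrolysing enzyme GLS1, with its vehicle DMSO in the aged kidney. All animals were male C57BL/6 mice aged 19 months that had received either agent for 1 month. Kidneys were digested with liberase and sorted on CD45, the surface protein of white blood cells, and 20000 CD45- cells were combined with 9000 CD45+ cells of the same tissue for each 10x Genomics GEM-X library. There were 2 BPTES and 2 DMSO libraries, and the labels do not say whether the 2 of a group came from separate mice, so p-values measure the spread between these samples, which may be technical.

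Dendritic cells take up antigen in tissue and present it to T cells. On maturation they raise CCR7, which guides them along CCL19 and CCL21 to the draining lymph node, form fascin-rich dendrites, and display CD80, CD86 and CD40, which deliver the second signal to T cells. The same program brings PD-L1 (Cd274), PD-L2 (Pdcd1lg2) and the secreted amino acid oxidase IL4I1, all of which restrain T cells, and CCL17 and CCL22, which attract T cells that carry CCR4, regulatory T cells among them.

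The 4 libraries held between 249881074 and 297947661 UMIs (unique molecular identifiers, each standing for 1 captured RNA molecule). Of 76278 barcodes, 25273 (33.1%) had over 50% mitochondrial UMIs and were left out with the few barcodes under 300 genes, and 3867 predicted doublets were then removed, which left 46738 cells. Their median depth was 13197 to 15059 UMIs, and any pair of libraries shared 29 to 49 of the kept barcodes, at most 0.417% of the smaller library. Cells were clustered without the 10 genes, and the clusters were named from markers that are none of the 10. Dendritic cells here are the clusters with markers of conventional dendritic cells of type 1 (cDC1) and type 2 (cDC2), of mature dendritic cells and of plasmacytoid dendritic cells (pDC), with 265 and 226 cells in the treated libraries and 427 and 296 in the vehicle libraries. Cells that grouped with them but carried monocyte or macrophage markers, T or B cell markers, or no clear identity were set apart. Of these, 48 and 67 in the treated libraries and 151 and 83 in the vehicle libraries had monocyte or macrophage markers.

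The cluster called mature dendritic cells had 96 cells, and each of its 12 naming markers was found in at least 20% of them. Il12b, Cacnb3, Fabp5, Mreg and Socs2 led it. Levels are given in CPM, the UMIs of a gene scaled by all UMIs of that population in that library, the usual depth-normalised count. Summed over the naming markers, the cluster's level was 5234 and 7033 CPM under BPTES and 7476 and 6362 CPM under DMSO. The groups overlapped, and BPTES library 1 was lowest. The 12 mature cells of BPTES library 1 also carried 359 CPM of T cell markers, against 4.38 to 57.2 CPM in the other libraries. Of these 12 cells 8 held UMIs of 5 or more of the 10 genes. In BPTES library 2, DMSO library 1 and DMSO library 2 this was 8 of 8, 41 of 42 and 33 of 34. The label is thus less certain for BPTES library 1. A cDC1 cluster of 94 cells was led in part by macrophage genes (Ccl8, St3gal6, Slco2b1), and summed macrophage markers in cDC1 were lower under BPTES, 1764 and 2328 CPM against 3251 and 4936 CPM.

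Ccl22 (ENSMUSG00000031779) lies at chr8:94745590-94751699 on the plus strand of GRCm38 and Ccl17 (ENSMUSG00000031780) at chr8:94810453-94812036, 58753 bases further on, with Cx3cl1 as the protein-coding gene between them. Cd274 (ENSMUSG00000016496) at chr19:29367455-29388095 and Pdcd1lg2 (ENSMUSG00000016498) at chr19:29410919-29471161 are neighbours on the same strand, 22823 bases apart with no annotated gene between. Since each pair shares a locus and a function, the RefSeq (GRCm38.p6) sequences just before their start sites are set side by side, in lower case, with matches to 2 motifs of maturation signalling in capitals. The motifs were the kappa-B consensus bound by NF-kB and a STAT motif (TTC and GAA with any 4 bases between), the spacing preferred by STAT6, each searched on both strands over up to 250 bases.
Ccl22, chr8:94745434-94745589: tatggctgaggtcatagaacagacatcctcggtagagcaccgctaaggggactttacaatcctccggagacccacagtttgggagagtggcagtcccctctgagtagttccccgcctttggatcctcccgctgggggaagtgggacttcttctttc
Ccl17, chr8:94810203-94810452: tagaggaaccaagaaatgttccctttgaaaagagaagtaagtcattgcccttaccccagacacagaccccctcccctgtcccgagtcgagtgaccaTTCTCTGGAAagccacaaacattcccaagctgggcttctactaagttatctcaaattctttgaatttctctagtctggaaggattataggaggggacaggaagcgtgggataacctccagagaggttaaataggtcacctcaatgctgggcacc
Cd274, chr19:29367188-29367437: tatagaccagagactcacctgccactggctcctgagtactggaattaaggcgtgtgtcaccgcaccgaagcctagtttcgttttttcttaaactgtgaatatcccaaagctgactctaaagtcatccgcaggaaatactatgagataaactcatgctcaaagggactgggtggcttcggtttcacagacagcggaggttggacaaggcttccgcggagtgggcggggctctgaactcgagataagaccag
Pdcd1lg2, chr19:29410669-29410918: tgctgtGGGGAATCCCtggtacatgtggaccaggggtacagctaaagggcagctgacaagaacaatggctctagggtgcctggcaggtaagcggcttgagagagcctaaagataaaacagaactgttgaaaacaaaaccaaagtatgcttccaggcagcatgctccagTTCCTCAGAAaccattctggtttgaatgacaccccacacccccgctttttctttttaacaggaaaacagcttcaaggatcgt
Pdcd1lg2 held a kappa-B match, GGGGAATCCC, starting 244 bases before the start site, and a STAT motif match, TTCCTCAGAA, at 82 bases before it. Ccl17 held TTCTCTGGAA at 154 bases before the start, and the windows of Ccl22 and Cd274 held neither motif. Of the 10 genes 7 were in the promoter table (Ccr7, Cd40 and Cd86 were not), and 1 of the 7 had a kappa-B match and 2 had the STAT motif. Over all 32851 promoters listed there, 7.25% held the kappa-B consensus and 5.85% held the STAT motif. A match says only that the letters are there.

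The other members lie apart: Ccr7 on chromosome 11 (99144196 to 99155077, minus strand), Il4i1 on chromosome 7 (44816387 to 44840809), Fscn1 on chromosome 5 (142960343 to 142973185), and Cd40 on chromosome 2 (165055627 to 165072948). Cd80 (38455561 to 38496335) and Cd86 (36603869 to 36666081, minus strand) are both on chromosome 16. Il4i1 shares exons with Nup62 on its own strand and overlaps Atf5 and Tbc1d17 on the other, and Cd274 overlaps AC119228.1 on the other strand, so the split of reads at these 2 genes is less certain.

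Mature dendritic cells had the highest level of 8 of the 10 genes among 8 populations (the 4 dendritic cell types, macrophages, monocytes, B cells and T cells). Ccl22 averaged 767 ± 427 CPM there (SD over the 4 libraries) and 84.3 ± 74.1 CPM in cDC2, and the ranges of the 2 populations did not overlap. Ccr7 averaged 1181 ± 226 CPM in mature dendritic cells, and B cells, which also use CCR7 to enter lymph nodes, came next at 298 ± 60.9 CPM, again with no overlap. Ccl17, in contrast, overlapped between mature cells (608 ± 437 CPM) and cDC2 (348 ± 188 CPM). Cd274 overlapped between mature cells (414 ± 198 CPM) and B cells (242 ± 42.9 CPM). So did Pdcd1lg2, at 76.8 ± 52.6 CPM in mature cells and 50.4 ± 11.4 CPM in B cells. Cd80 and Cd86 were highest in cDC2, at 263 ± 40.1 and 674 ± 55.8 CPM, with ranges overlapping those of the next populations, mature cells for Cd80 and macrophages for Cd86. Beyond these 8 populations, neutrophils held more Cd80 than any of them, 376, 366, 369 and 618 CPM in BPTES 1, BPTES 2, DMSO 1 and DMSO 2, and endothelium held Fscn1 at 79.3 to 124 CPM.

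**Figure D1:**
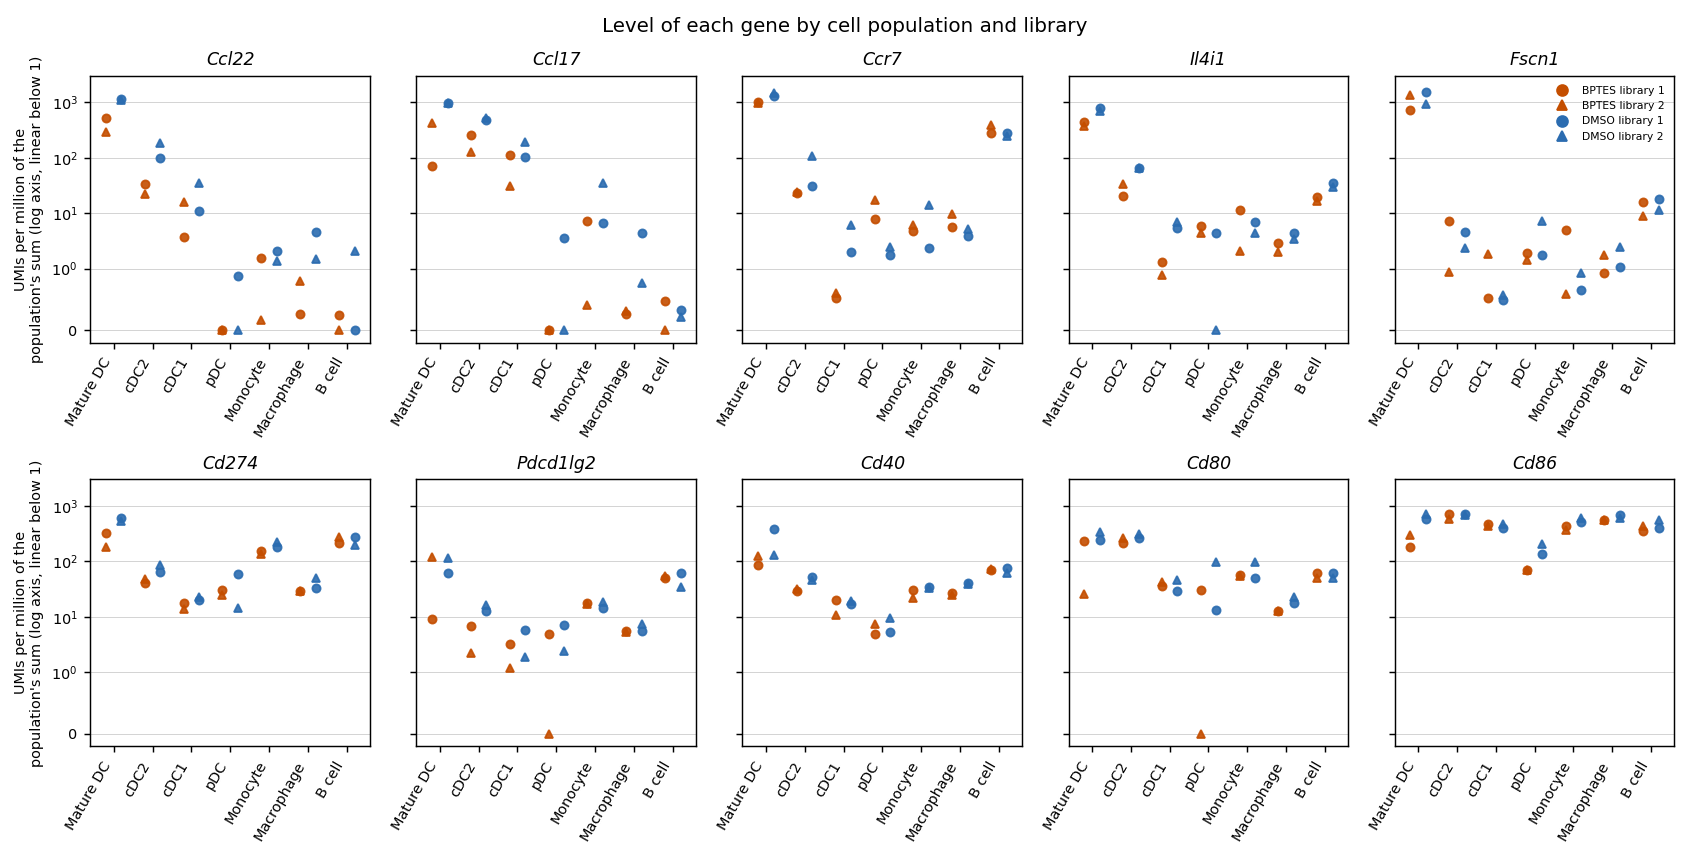
Level of each of the 10 genes (CPM, log axis that turns linear below 1) in the 4 dendritic cell types, monocytes, macrophages and B cells, with 1 point per library, coloured by group and shaped by replicate number. By their mean, mature dendritic cells are highest for 8 genes, and cDC2 for Cd80 and Cd86.

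Mature dendritic cells were fewer under BPTES. The 2 treated libraries held 12 and 8 of them, and the 2 vehicle libraries held 42 and 34. As a share of dendritic cells this was 4.53% (exact 95% binomial interval 2.36 to 7.78) and 3.54% (1.54 to 6.86) under BPTES, and 9.84% (7.18 to 13.1) and 11.5% (8.09 to 15.7) under DMSO. The group means were 4.03% ± 0.699 and 10.7% ± 1.17 (SD, n = 2 each), the groups did not overlap, and the exact two-sided permutation test gave p = 0.333, the smallest that 2 against 2 libraries can give. Intervals here and below cover counting error only.

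Counted against all cells of CD45+ classes, whose input number the sort fixed, the mature cells were 0.352% and 0.253% under BPTES and 1.16% and 1.05% under DMSO. In edgeR's quasi-likelihood test over the cell populations this was a fall of log2 -1.85 (SE 0.49, Benjamini-Hochberg adjusted p = 0.00568). The call was lost without BPTES library 1 (log2 -2.11, adjusted p = 0.119) and without BPTES library 2 (log2 -1.64, adjusted p = 0.279). The same test gave log2 -0.69 for cDC2 (adjusted p = 0.168), -0.14 for cDC1 (0.712) and 0.40 for pDC (0.495). These values leaned on the DMSO libraries: without DMSO library 1 they were -0.36 for cDC2, -0.33 for cDC1 and 1.66 for pDC (adjusted p = 0.0346 for pDC), and without DMSO library 2 they were -0.95 (adjusted p = 0.0379 for cDC2), 0.072 and -0.23. The 10 genes took no part in the clustering, but they were picked on the same cells and track this cluster, so the count is no independent support for them.

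**Figure D2:**
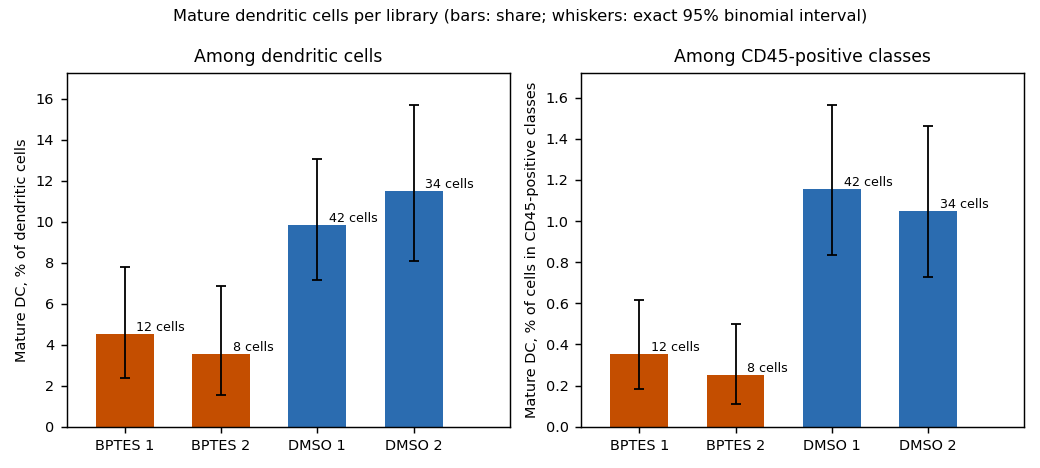
Mature dendritic cells in each library as a percentage of dendritic cells (left) and of all cells of CD45+ classes (right), with bars for the share and whiskers for exact 95% binomial intervals. On the left the BPTES libraries lie at 4.53% and 3.54% and the DMSO libraries at 9.84% and 11.5%.

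Summed over all dendritic cells, each of the 10 genes had both BPTES libraries below both DMSO libraries, where 21.0% of the 12385 genes fitted did; this contrast picked the genes, so nothing is read from the count. The median log2 fold change of the 10 was -1.65, against 0.00057 over all genes. Fitted values below are edgeR log2 fold changes of BPTES over DMSO.

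Among the chemokines, Ccl22 was at 35.5 and 25.3 CPM under BPTES and at 151 and 197 CPM under DMSO, which is 314 and 187 UMIs in the treated libraries and 2151 and 2348 in the vehicle libraries (log2 -2.55, SE 0.22). Ccl17 was at 161 and 81.4 CPM under BPTES and at 373 and 403 CPM under DMSO (log2 -1.72, SE 0.38). Both chemokines were low in both BPTES libraries, Ccl17 with a wider spread between them. Ccr7, the homing receptor, was at 49.1 and 42.4 CPM under BPTES and at 119 and 188 CPM under DMSO (log2 -1.78, SE 0.28). Il4i1, whose product breaks down phenylalanine and other amino acids, was at 26.1 and 26.3 CPM under BPTES and at 100.2 and 96.4 CPM under DMSO (log2 -1.95, SE 0.08). Fscn1, which bundles the actin of dendrites, was at 30.9 and 42.7 CPM under BPTES and at 127 and 88.5 CPM under DMSO (log2 -1.60, SE 0.26). The libraries within a group lay close together for Il4i1 and further apart for Ccr7 and Fscn1, with no overlap between groups in any of them.

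Of the inhibitory ligands, Cd274 was at 40.5 and 34.8 CPM under BPTES and at 96.2 and 98.1 CPM under DMSO (log2 -1.41, SE 0.09). Pdcd1lg2 was at 5.20 and 5.28 CPM under BPTES and at 14.3 and 18.7 CPM under DMSO (log2 -1.69, SE 0.20). PD-L1 and PD-L2 both bind PD-1 on T cells, and the RNAs of both were lower in each BPTES library. The costimulatory genes differed less. Cd40, the receptor through which T helper cells license dendritic cells, was at 24.9 and 23.3 CPM under BPTES and at 64.5 and 41.2 CPM under DMSO (log2 -1.18, SE 0.23). Cd80 was at 117 and 132 CPM under BPTES and at 178 and 189 CPM under DMSO (log2 -0.60, SE 0.09). Cd86 was at 509.6 and 461 CPM under BPTES and at 565 and 579 CPM under DMSO (log2 -0.28, SE 0.07). Cd80 and Cd86, the ligands of CD28, thus had the smallest differences of the 10 in this sum.

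**Figure D3:**
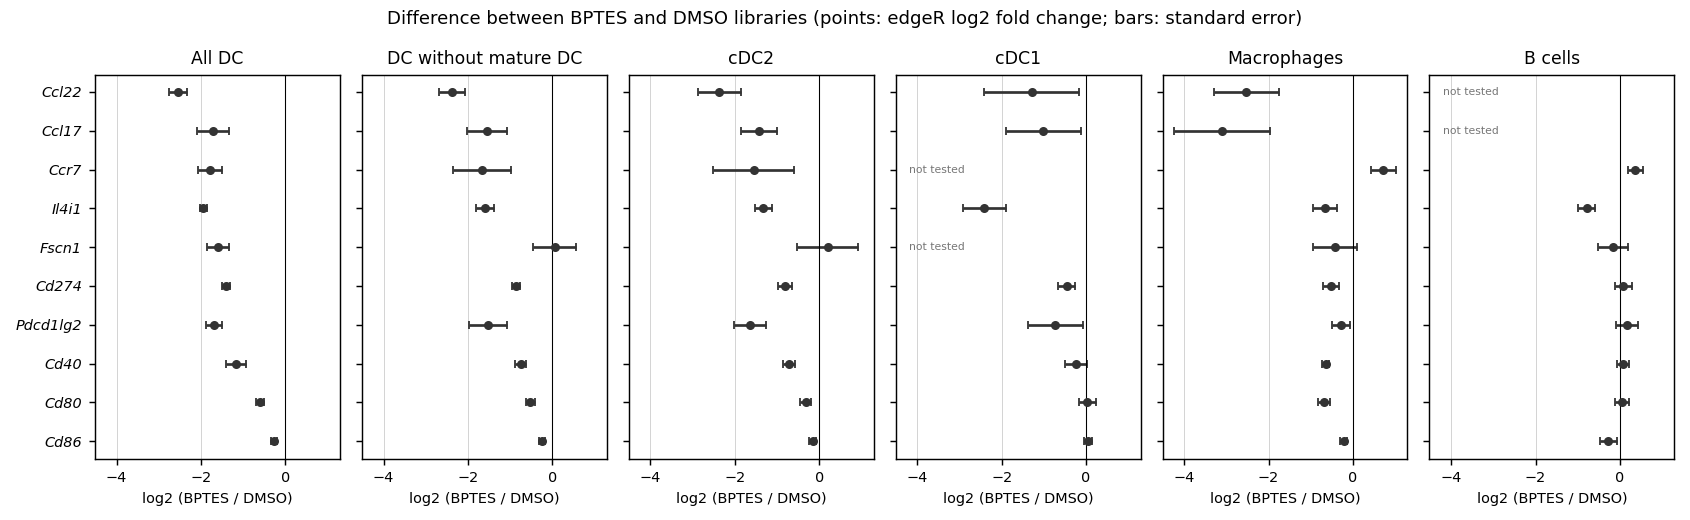
Log2 fold change of BPTES over DMSO with its standard error (bars) for each gene in all dendritic cells, dendritic cells without the mature ones, cDC2, cDC1, macrophages and B cells; genes below the count filter are marked as not tested. In all dendritic cells the 10 genes run from -2.55 (Ccl22) to -0.28 (Cd86).

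Within the mature cells alone, 8 of the 10 genes had both BPTES libraries below both DMSO libraries, against 17.0% of 6990 genes. These cells are part of the contrast that picked the genes, so nothing is read from that count. With 12 and 8 BPTES cells no model was fitted. Ccl22 was at 528 and 289 CPM under BPTES and at 1167 and 1086 CPM under DMSO. Il4i1 was at 434 and 368 CPM under BPTES and at 789 and 691 CPM under DMSO. Cd86 was at 181 and 298 CPM under BPTES and at 577 and 707 CPM under DMSO. These 3 did not overlap between groups. Ccr7 was closer, with 1014 and 980.4 CPM under BPTES and 1275 and 1457 CPM under DMSO. Cd40 and Cd80 were nearly tied at the nearest libraries of the groups. Cd40 was at 87.5 and 127 CPM under BPTES and at 380 and 131 CPM under DMSO. Cd80 was at 235 and 26.3 CPM under BPTES and at 247 and 344 CPM under DMSO. Fscn1 overlapped, at 730.0 and 1335 CPM under BPTES and 1559 and 916 CPM under DMSO, as did Pdcd1lg2, at 9.05 and 123 CPM against 61.6 and 114 CPM. Summed macrophage markers in these cells were 679 and 845 CPM under BPTES and 1422 and 1095 CPM under DMSO. Their part in the differences was not tested, nor was that of the T cell markers in BPTES library 1, where the label is less certain. Single cells weigh heavily here: 89 of the 98 Ccl17 UMIs of the mature cells in BPTES library 2 (90.8%) were in 1 cell.

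The difference was also present outside the mature cluster: without the mature cells, the median over the 10 genes was -1.19, with Fscn1 at 0.06 and Ccl22 at -2.37. In cDC2, the kidney's dendritic cells that present to helper T cells, 8 of the 10 genes had both BPTES libraries below both DMSO libraries (background 18.7%) and the median log2 fold change was -1.07. These cells too are part of the contrast that picked the genes, so nothing is read from that count. Ccl22 was at 33.6 and 21.9 CPM under BPTES and at 98.4 and 183 CPM under DMSO (log2 -2.36, SE 0.50), and 96 of the 125 UMIs of BPTES library 1 (76.8%) came from 1 cell. Ccl17 was at 260.2 and 127 CPM under BPTES and at 478 and 529 CPM under DMSO (log2 -1.42, SE 0.42). In BPTES libraries 1 and 2, 1 cell held 445 of 969 and 234 of 400 of its UMIs, against 829 of 3793 and 620 of 2701 under DMSO. Il4i1 was at 20.4 and 33.0 CPM under BPTES and at 64.1 and 64.6 CPM under DMSO (log2 -1.32, SE 0.20). All 3 separated the groups, as did Cd274, at 40.8 and 48.5 CPM under BPTES and 65.7 and 86.7 CPM under DMSO (log2 -0.81, SE 0.16), and Cd40, at 29.8 and 32.3 CPM against 52.1 and 46.0 CPM (log2 -0.71, SE 0.14). Ccr7 was at 23.6 and 23.8 CPM under BPTES and at 30.8 and 108 CPM under DMSO, so its fold change (log2 -1.56, SE 0.96) leaned on DMSO library 2. Cd86 (log2 -0.15, SE 0.09) and Fscn1 (log2 0.21, SE 0.72) overlapped between groups. Without DMSO library 2 the median over the 10 was -0.70.

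The cDC2 cells fell into 4 clusters whose shares differed between libraries. A cluster led by Cd7 and Tppp3 held 33.1% and 40% of cDC2 under BPTES and 20.8% and 21.7% under DMSO. Its Ccl17 was at 2.44 and 0 CPM under BPTES and at 26.4 and 135 CPM under DMSO. Its Cd86 was at 313 and 296 CPM against 322 and 309 CPM, below the cluster described next for both genes. In the cluster led by Tnip3 and Il1b, with 33 and 43 cells under BPTES and 94 and 63 under DMSO, Ccl22 was at 4.73 and 50.2 CPM under BPTES and at 146 and 355 CPM under DMSO. Ccl17 in those cells was at 801 and 295 CPM under BPTES and at 880.4 and 917 CPM under DMSO. In BPTES library 1, 1 cell held 445 and another 273 of the 847 Ccl17 UMIs of this cluster. In BPTES library 2, 1 cell held 234 of 399, and in the DMSO libraries 829 of 2844 and 620 of 2306. The BPTES libraries lay far apart for both chemokines. Cd86 in those cells was higher in both BPTES libraries, at 975.4 and 1002 CPM against 902 and 912 CPM, and Ccr7, at 51.1 and 42.8 CPM against 43.6 and 211 CPM, overlapped between groups. Ccl22 overlapped between groups in 2 of the other cDC2 clusters. In the cluster led by Dscam and Ffar2 it was at 12.9 and 0 CPM under BPTES and at 18.0 and 7.33 CPM under DMSO. In the cluster led by the interferon-induced genes Cxcl10 and Rsad2, with 5 and 2 cells under BPTES, it was at 514 and 0 CPM against 473 and 226 CPM.

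In cDC1, which cross-present antigen to CD8 T cells, 3 of the 10 genes separated the groups with BPTES lower, near the 23.3% of all genes, and the median over the 8 genes that passed the count filter was -0.60. This median was -0.75 and -0.31 without BPTES library 1 and 2, and -0.55 and -0.28 without DMSO library 1 and 2. Il4i1 was at 1.33 and 0.905 CPM under BPTES and at 5.39 and 6.86 CPM under DMSO (log2 -2.41, SE 0.51), but its fold change was 0.76 when the 10 genes were kept in the clustering. Cd274 was at 17.6 and 13.9 CPM under BPTES and at 20.3 and 23.2 CPM under DMSO (log2 -0.46, SE 0.21). Ccl22 and Ccl17 overlapped, and for Ccl17 1 cell held 414 of the 427 UMIs of BPTES library 1. Cd86 (log2 0.04) and Cd80 (log2 0.03) were near 0. Leaving out the cluster partly led by macrophage genes, Cd274 overlapped between groups, at 18.5 and 19.7 CPM under BPTES and 19.1 and 20.9 CPM under DMSO. In pDC, DMSO library 1 held 1 Ccl22 UMI and 4 Ccl17 UMIs, and the other 3 libraries held none of either gene. Ccr7 in pDC was higher in both BPTES libraries, at 7.78 and 17.5 CPM (8 and 12 UMIs) against 1.77 and 2.42 CPM (2 and 1 UMIs).

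Holding each subtype's share of the dendritic cell UMIs at its mean over the libraries gives the part of the difference that lies within subtypes. Holding each subtype's level at its mean gives the part that lies in their shares. Each subtype counts as 1 unit, so shifts between the clusters of cDC2 fall in the part within subtypes. The mature cells took 3.75% and 3.09% of dendritic cell UMIs under BPTES and 7.96% and 9.50% under DMSO. The median log2 difference over the 10 genes was -1.60 as observed, -0.81 with shares held and -0.57 with levels held. With shares held, 9 of 10 genes kept both BPTES libraries below both DMSO libraries (21.8% of all genes did), Fscn1 being the exception. With levels held all 10 did (19.7%), where the order of the libraries follows from the subtype shares alone. Both counts come from the contrast that picked the genes, so nothing is read from them. Fscn1 stood at -0.25 with shares held and at -1.30 with levels held, and Ccr7 at -0.68 and -1.04. Ccl17 was the reverse, at -1.39 with shares held and -0.29 with levels held, and Ccl22 stood at -1.78 and -0.73. Fscn1 and Ccr7 had the larger difference with levels held, and the chemokines with shares held. Holding levels lets the shares of all 4 subtypes vary, so that value is not the part of the mature cells alone. The 2 parts are descriptions of these libraries, chosen after their values were seen, and they need not add up to the whole.

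**Figure D4:**
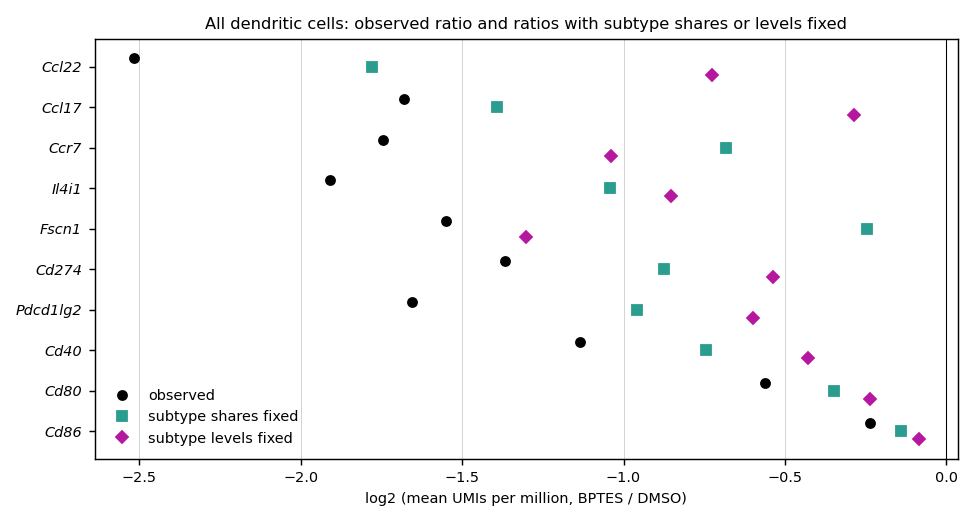
Log2 difference between BPTES and DMSO for each gene in dendritic cells as observed, with subtype shares held at their mean, and with subtype levels held at their mean. Fscn1 moves from -0.25 with shares held to -1.30 with levels held, and Ccl17 from -1.39 to -0.29.

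The share of cells with at least 1 UMI of a gene followed the level for some genes and not for others. Among cDC2, Ccl22 was found in 7.69% and 9.09% of cells under BPTES and in 19.2% and 21.7% under DMSO, and after each cell was thinned to 2000 UMIs in 1.54% and 3.92% against 8.27% and 9.33%. Proximal tubule cells, which should lack the gene, showed it in 0%, 0.0183%, 0.284% and 0.225% of cells in BPTES 1, BPTES 2, DMSO 1 and DMSO 2. Median depth was 28637 to 33105.5 UMIs in cDC2 and 15016.5 to 17864 in proximal tubule cells. The share in cDC2 was thus above that background in every library, and the groups did not overlap. For Ccr7 in cDC2 the share was 14.6% and 10.9% under BPTES and 12.9% and 16.4% under DMSO, which overlap although the levels did not. Ccl22 in mature cells was found in 58.3% and 87.5% of cells under BPTES and in 81.0% and 67.6% under DMSO, again overlapping where the levels did not. The reverse held for Cd40 in cDC1, whose levels overlapped, at 19.95 and 10.9 CPM against 17.2 and 19.6 CPM, while its share was 20.2% and 17.1% under BPTES and 34.5% and 39.4% under DMSO. After thinning to 2000 UMIs this share overlapped too, at 5.95% and 1.33% against 1.19% and 4.04%. Cells with UMIs of 5 or more of the 10 genes made up 13.1% and 12.7% of cDC2 under BPTES and 31.8% and 30.9% under DMSO. In mature cells they were 66.7% and 100% under BPTES and 97.6% and 97.1% under DMSO, which overlap.

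Mature dendritic cells, at most 42 in a library, held much of the libraries' Ccr7. Of all Ccr7 UMIs in a library, 14.4% and 7.05% came from them under BPTES and 40.4% and 36.3% under DMSO, while B cells gave 49.4% and 39.2% in the treated libraries and 23.4% and 26.0% in the vehicle libraries. Of these 2 populations, B cells thus gave more of the receptor's RNA under BPTES and mature dendritic cells more under DMSO. For Ccl22 the mature cells gave 39.0% and 17.6% under BPTES and 40.2% and 34.7% under DMSO, where the whole BPTES libraries held 449 and 374 Ccl22 UMIs and the whole DMSO libraries 3295 and 3543.

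The macrophage and B cell values, named in the definition of the gene set, are given with no call for the 10 genes. Over all genes, edgeR called 1.45% of 13884 lower in macrophages and 0.00910% of 10986 in either direction in B cells. In macrophages Cd40 was at 26.9 and 24.8 CPM under BPTES and at 40.3 and 39.9 CPM under DMSO. The groups did not overlap (log2 -0.64, SE 0.08). A Cd40 UMI was found in 20.6% and 18.2% of macrophages under BPTES and in 35.7% and 38.1% under DMSO, and after thinning to 2000 UMIs in 3.98% and 3.55% against 6.75% and 7.63%. Proximal tubule cells showed Cd40 in 0.157% and 0.165% of cells under BPTES and 0.569% and 0.429% under DMSO. Median depths were 13491 to 19406 UMIs in macrophages and, as above, 15016.5 to 17864 in proximal tubule cells. Summed macrophage markers in these cells were also lower under BPTES, 14382 and 13978 CPM against 18884 and 26418 CPM, and summed markers of mature dendritic cells were 344 and 335 CPM against 463 and 494 CPM; the part of either in the Cd40 difference was not tested.

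For 8 of the 10 genes both BPTES libraries lay below both DMSO libraries in macrophages, where 28.0% of genes did. For 1, Ccr7, they lay above (27.9% of genes). The definition of the gene set names these values, so nothing is read from either count. Cd80 was at 12.9 and 12.7 CPM under BPTES and at 18.0 and 22.9 CPM under DMSO (log2 -0.69, SE 0.14). Cd86 was at 560.1 and 554 CPM under BPTES and at 674 and 616 CPM under DMSO (log2 -0.22). Cd274 was at 29.2 and 29.4 CPM under BPTES and at 33.8 and 49.6 CPM under DMSO (log2 -0.52). Among these 3 the difference was smallest for Cd86. Ccl22 was at 0.266 and 0.794 CPM under BPTES and at 4.49 and 1.53 CPM under DMSO (log2 -2.53, SE 0.77). It was found in 0.340% and 0.685% of macrophages under BPTES and 2.29% and 1.23% under DMSO. Of its 84 UMIs in DMSO library 1, 34 were in 1 cell, and 1 cell held 2 of 4 and 5 of 10 in BPTES libraries 1 and 2. For Ccl17 53 of the 82 UMIs of DMSO library 1 were in 1 cell. Ccr7 was at 5.65 and 9.68 CPM under BPTES and at 3.90 and 5.25 CPM under DMSO (log2 0.72, SE 0.31).

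**Figure D5:**
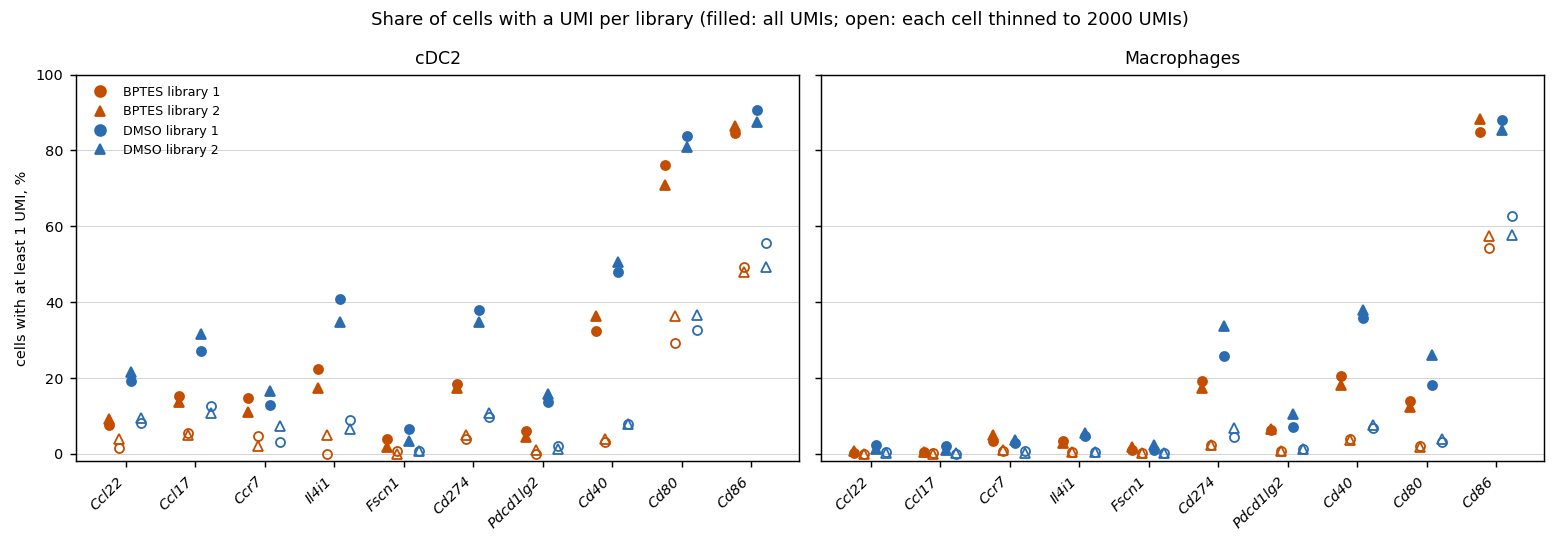
Percentage of cells with at least 1 UMI of each gene in each library, for cDC2 (left) and macrophages (right), from all UMIs (filled) and after thinning each cell to 2000 UMIs (open). From all UMIs, Cd40 in macrophages lies at 20.6% and 18.2% under BPTES and at 35.7% and 38.1% under DMSO.

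In B cells 8 of the 10 genes had enough UMIs to be fitted (Ccl22 and Ccl17 did not). Il4i1 was at 19.8 and 16.8 CPM under BPTES and at 35.5 and 29.5 CPM under DMSO (log2 -0.79, SE 0.20). It was the 1 gene of the 10 with BPTES below DMSO without overlap, where 24.9% of genes were. Ccr7 was the 1 gene above, where 17.9% of genes were, at 277 and 387 CPM under BPTES and 276 and 250.1 CPM under DMSO (log2 0.37, SE 0.18). As in macrophages, nothing is read from these counts. The ligands that B cells carry at appreciable levels overlapped between groups. Cd274 was at 213 and 281 CPM under BPTES and at 278 and 199 CPM under DMSO, and Cd86 at 347 and 429 CPM against 404 and 549 CPM.

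In monocytes none of the 10 genes passed, against 1.29% of 12837 genes. At an unadjusted p under 0.05 there were 2, Cd274 and Cd86, where 2881 of the 12837 genes were, so nothing is read from that number. DESeq2 called 1, Cd86, where it called 535 of 12837 genes. The number edgeR called changed when a library was left out. Cd274 was at 152 and 139 CPM under BPTES and at 184 and 221 CPM under DMSO (log2 -0.46, SE 0.12, edgeR adjusted p = 0.0993). Cd86 was at 441 and 369 CPM under BPTES and at 521 and 614 CPM under DMSO (log2 -0.47, SE 0.13, edgeR adjusted p = 0.111). Both separated the groups, as 3 of the 10 did with BPTES lower and 28.4% of genes. For Ccl17, 1 monocyte of DMSO library 2 held 204 of that library's 228 UMIs.

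Of the 10 genes themselves 8 were tested in T cells, and none was called. Over all genes there, 1708 of 12109 had an unadjusted p under 0.05 and DESeq2 called 59. Of the 8, 2 had an unadjusted p under 0.05 (Cd80 and Pdcd1lg2) and DESeq2 called 0. A list of 8 partner genes, most of them receptors or ligands for products of the 10, showed no change that passed in T cells. It also holds Icos, whose ligand gene Icosl is not among the 10. Ccl19 and Ccl21a, for the ligands of CCR7, had too few UMIs there to be tested. Of the 8 genes listed, 6 were tested and 0 were called (0.0908% of 12109 genes were), 2 had an unadjusted p under 0.05 and DESeq2 called 0. Without BPTES library 2, 1 was called, Ccr4. Cd28, the receptor for CD80 and CD86, was at 471 and 452 CPM under BPTES and at 474 and 483 CPM under DMSO (log2 -0.05). Ctla4, which competes with CD28 for both ligands, was at 385 and 394 CPM under BPTES and at 436 and 554 CPM under DMSO (log2 -0.34, SE 0.11, edgeR adjusted p = 0.254). Ccr4, the receptor for CCL17 and CCL22, had log2 -0.71 (SE 0.17, edgeR adjusted p = 0.136). Cd40lg, the ligand of CD40, was at 177 and 203 CPM under BPTES and at 228 and 181 CPM under DMSO, and Icos at 202 and 201 CPM against 198 and 211 CPM. Both overlapped between groups.

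Other genes of the mature program, none of them among the 10, were lower in dendritic cells too. Of 20 such genes 12 fell and none rose (1.11% of all genes fell and 0.347% rose), with a median of log2 -1.05. The list is of genes that mark the cells that were fewer, and it was written with earlier results of these libraries known. Many of its genes, Tmem123 and Samsn1 among them, are also naming markers of the mature cluster. Their fall in the sum goes with the lower count of that cluster, so it is no separate support. Tbc1d4 was at 189 and 177 CPM under BPTES and at 317 and 334 CPM under DMSO (log2 -0.87, edgeR adjusted p = 0.00394). Ccl5, a chemokine, was at 125 and 121 CPM under BPTES and at 239 and 307 CPM under DMSO (log2 -1.19, edgeR adjusted p = 0.0185). Tmem123 and Samsn1 fell as well, by log2 -0.77 and -0.60 (edgeR adjusted p = 0.00599 and 0.0169). Without the mature cells 2 of the 15 genes tested fell, where 0.517% of 12190 genes did. Tbc1d4 was one of them (log2 -0.63, edgeR adjusted p = 0.0256), while Ccl5 (-0.50), Samsn1 (-0.24) and Tmem123 (-0.12) did not pass. Samsn1 and Tmem123 helped to name the cells taken out, so nothing is read from their lost calls.

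Of 12 genes of the NF-kB pathway, which takes part in maturation, 4 fell (Traf1, Map3k14, Rel and Relb) and none rose, with a median of -0.33. Over all genes 1.11% fell and 0.347% rose, and these shares also apply to the lists that follow. Relb is also a naming marker of the mature cluster. Rel was at 536 and 517 CPM under BPTES and at 682 and 666 CPM under DMSO (log2 -0.40, edgeR adjusted p = 0.0339), while Nfkbia, at 651 and 605 CPM against 739 and 788 CPM, did not pass. Nfkb1 (log2 -0.34, adjusted p = 0.0811) and the inhibitor of apoptosis gene Birc3 (log2 -0.28, adjusted p = 0.0991) did not pass either. Without the mature cells 1 of the 12 fell, Relb (0.517% of all genes did), and within cDC2 and within cDC1 0 were called. In mature cells Rel was at 1550 and 687 CPM under BPTES and at 1311 and 1326 CPM under DMSO. Relb was at 884 and 1007 CPM against 1110 and 965 CPM there, so both overlapped. Nfkb2 was higher under BPTES there, at 169 and 175 CPM against 151 and 156 CPM. The part of the lower count of mature cells in these falls was not tested. Of 7 further costimulatory or inhibitory ligands 2 fell, Tnfsf4 (OX40 ligand, log2 -2.61) and Tnfsf9 (4-1BB ligand, log2 -0.56). Without the mature cells Tnfsf4 lost its call (log2 -1.38, edgeR adjusted p = 0.253) and Tnfsf9 kept it (log2 -0.58, edgeR adjusted p = 0.0323). Tnfsf9 was at 94.0 and 81.5 CPM under BPTES and at 129 and 122 CPM under DMSO. Cd83, a surface marker of mature dendritic cells, was at 642 and 624 CPM under BPTES and at 708 and 745 CPM under DMSO and did not pass (adjusted p = 0.129), nor did Icosl (log2 -0.25) or Vsir (log2 0.23). Of 12 genes of GM-CSF, IL-4 and TSLP signalling, which promote Ccl17, 1 fell, Cish (log2 -1.57), a target gene of STAT5. The receptor chains Csf2rb (log2 -0.42, adjusted p = 0.0623), Csf2ra (-0.11), Crlf2 (-0.25) and Il13ra1 (0.30) did not pass.

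Genes of dendritic cell identity had a median of 0.02, with Itgax (log2 -0.61) and Clec10a (log2 -0.40) fallen of 12. This list joins naming markers of cDC1 with those of cDC2, so its median can hide opposite differences. Of the dendritic cell UMIs, cDC1 took 42.5% and 44.9% under BPTES and 28.6% and 44.1% under DMSO. For cDC2 this was 42.1% and 42.7% against 55.5% and 42.9%. The part of these shares in the values was not tested. Irf8, the factor that cDC1 depend on, was at 926 and 963 CPM under BPTES and at 666 and 737 CPM under DMSO (log2 0.39, edgeR adjusted p = 0.0615). Cadm1 (log2 0.54), Cd209a (-0.49) and Naaa (0.0014) did not pass either. Genes of tissue dissociation and heat shock had a median of 0.07, and 1 of 12, the chaperone gene Dnajb1, rose (log2 0.90). Fos was at 862 and 872 CPM under BPTES and at 706 and 744 CPM under DMSO and did not pass, nor did Junb (log2 -0.28), Jun (0.057) or Atf3 (0.091). The part of such handling differences in the members' values was not tested.

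Over 32 levels (8 populations in 4 libraries), the genes whose pattern was most like the mean of the 10 were Phlpp1 (Pearson r 0.93), Nfkb2 (0.92), Mreg (0.92), Rel (0.91) and Relb (0.90). Mreg and Relb are also naming markers of the mature cluster, which is among these populations. Among the 10 themselves, Il4i1 followed the mean most closely (0.94) and Cd86 least (0.53). Ccl22 and Ccl17 were correlated at 0.91 and Cd274 and Pdcd1lg2 at 0.84, while Cd86 was nearest to Cd40 at 0.80. These are descriptions, since the points share libraries and depth.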

How the data were processed

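Single-cell RNA libraries of mouse kidney, 2 labelled BPTES and 2 labelled DMSO, were analysed, grouped by the treatment in the sample labels. For each gene and barcode the authors deposited a raw UMI count, made with Cell Ranger 8.0.1 per the file headers, on mm10 per the submitters' processing notes; the gene annotation is not given in the sources used here. Gene positions come from an annotation of GRCm38 matched by identifier.

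Barcodes with at least 500 UMIs, 300 genes and at most 50% mitochondrial UMIs were kept. Simulated doublets were used to score and remove 0.4% of barcodes per 1000. Cells were clustered on 3000 variable genes, 40 principal components and 15 neighbours (leidenalg 0.10.2, resolution 1), and dendritic cells again on 2000 genes and 30 components, without the 10 genes. Clusters were named where at least 3 markers of a list were in 20% of cells. UMI counts were summed per library and population and fitted with edgeR 4.0.16 (R 4.3.3; TMM scaling, its filter on low counts, robust quasi-likelihood test, Benjamini-Hochberg adjustment over all genes of the population, threshold 0.05), after the fit had been tested on simulated data. Populations with under 20 cells in a library were not fitted. CPM are shares of a population's summed UMIs, without scaling factors. Shares of cells were also taken after thinning each cell to 2000 UMIs, leaving out shallower cells.

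The members and lists were chosen with earlier results of these data known. Named were the 10 members, the 4 genes of each list with most UMIs, and the 5 genes most correlated with the members' mean among genes of at least 5 CPM; list genes outside that rule are named because they passed the test. Alternatives were DESeq2 1.42.0, other scaling, no low-count filter, a replicate block, a 25% mitochondrial limit, each library left out in turn, predicted doublets included, other clustering and other thinning.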

Additional observations from a re-analysis of the deposited data

Results flagged for a closer look

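Ccr7 was higher in both BPTES libraries than in both DMSO libraries in macrophages (log2 fold change 0.72) and B cells (0.37), while in the sum of dendritic cells both BPTES libraries lay below (log2 -1.78). It was also higher in both BPTES libraries in pDC, a part of that sum, at 7.78 and 17.5 CPM against 1.77 and 2.42 CPM. In innate lymphoid cells, 1 and 5 Ccr7 UMIs in 134 and 99 BPTES cells stood against none in 68 and 52 DMSO cells. The single UMI of BPTES library 1 is 0.503 CPM, while 3 UMIs in the DMSO libraries would be 2.69 and 3.38 CPM. No order of the groups is read from these cells. In B cells the nearest libraries of the groups stood at 277 and 276 CPM, with exact Poisson 95% intervals of 262 to 294 and 257 to 295 CPM for counting error. Between groups the UMIs of Ccr7 per cell overlapped in B cells (BPTES 3.16 and 4.19, DMSO 2.90 and 4.504) and in macrophages (0.0963 and 0.167 against 0.0760 and 0.120). The share of cells with a Ccr7 UMI overlapped as well, at 67.3% and 76.1% against 64.4% and 69.8% of B cells and at 3.51% and 4.93% against 2.81% and 3.59% of macrophages. The difference between populations was not tested.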

How the results depend on the processing

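All of the results in dendritic cells rest on 2 libraries a group, and the mature cells on 12 and 8 cells under BPTES. Of 150 values of the 10 genes in dendritic cells under the alternatives, 149 were below 0. This contrast picked the genes, so nothing is read from that count. Of the 150 values, 47 differed from the gene's main value by at least its standard error. The median of -1.65 ranged from -1.60 to -1.47 when a library was left out. In alternatives chosen after seeing the data it was -1.19 without the mature cells and -1.28 with all cells of the dendritic clusters. On unscaled CPM, where the observed median was -1.60, it was -0.81 with subtype shares held and -0.57 with subtype levels held. In cDC2 the median ranged from -1.25 to -0.70 when a library was left out. The fall in mature cell number ranged from -2.11 to -1.64 when a library was left out, and lost its call without either BPTES library. It was -2.19 with the 10 genes kept in the clustering and -1.54 with predicted doublets kept. Against dendritic cells in place of all CD45+ classes it was -1.38. The difference in cDC2 cells with a Ccl22 UMI was -6.07 percentage points after thinning to 2000 UMIs and -12.1 without thinning.

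Nothing is read from the numbers of members called in macrophages and B cells, whose values the definition of the gene set names, and they are given only to show their dependence on the processing. The number of all genes called, given in brackets, changed between fits as well. The number of members called in macrophages was 1 in the main fit (265 of 13884 genes) and 4 with DESeq2 (601 of 13884). It was 6 with no low-count filter (2053 of 21697) and 2 with doublets kept (187 of 14481). In B cells it was 0 in the main fit (1 of 10986) and 1 with no low-count filter (503 of 18812). In monocytes it was 0 in the main fit (165 of 12837), 1 with DESeq2 (535 of 12837) and 3 with no low-count filter (1767 of 20461). Of the T cell partners, 0 were called in the main fit (11 of 12109) and 2 with no low-count filter (636 of 20164). Except in B cells, these numbers also changed when a library was left out. With a replicate block the calls were 2 in macrophages (657 of 13884 genes) and 1 in B cells (488 of 10986). Among the T cell partners 1 was called, Ccr4 (153 of 12109 genes). The fall in mature cells kept its call with that block (edgeR log2 -1.86, adjusted p = 0.0205). The labels give only numbers, and the deviations of same-numbered libraries correlated at 0.14 in dendritic cells, -0.037 in macrophages and 0.25 in B cells. The causes of these changes were not tested.

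Genes that changed sign were uncalled in the main fit. With doublets kept, in monocytes Ccl22 stood at 0.089 and Ccr7 at 0.59, and in T cells Icos at 0.018. When a library was left out, B cell values ranged from -0.13 to 0.33 for Cd274, -0.031 to 0.19 for Cd40, -0.12 to 0.19 for Cd80, -0.63 to 0.17 for Fscn1 and -0.19 to 0.61 for Pdcd1lg2. In monocytes the ranges were -1.34 to 1.24 for Ccr7, -0.83 to 0.17 for Cd80, -0.33 to 2.71 for Fscn1, -1.42 to 0.94 for Il4i1 and -0.11 to 0.33 for Pdcd1lg2. In T cells they were -0.25 to 0.087 for Cd40lg, -0.056 to 0.037 for Icos and -0.44 to 0.27 for Pdcd1, and in macrophages -0.95 to 0.30 for Fscn1.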

Other observations

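Neutrophils, whose Cd80 level is given above, also carried Cd274 at high levels, 261 and 263 CPM under BPTES and 274 and 359 CPM under DMSO. A Cd274 UMI was found in 65.5% and 64.5% of neutrophils under BPTES and in 52.9% and 55.8% under DMSO, so the share of cells ran opposite to the level. Neither difference was tested. Among T cells, Relb, an NF-kB subunit that also fell in dendritic cells (log2 -0.92), fell (log2 -0.97, SE 0.10, edgeR adjusted p = 0.00983); it was singled out after its values were seen.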
